A study of Mus musculus with 4 samples.

Results

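Transcripts of 29 genes of the lysosome were followed through the cell types of mouse MC38 tumours: 7 cathepsins of the cysteine protease family with legumain (Ctsb, Ctsc, Ctsh, Ctsk, Ctsl, Ctss, Ctsz, Lgmn), an aspartic and a serine protease (Ctsd, Ctsa), 8 membrane proteins (Lamp1, Lamp2, Cd63, Cd68, Scarb2, Laptm5, Npc1, Mcoln1), 5 glycosidases and ceramidases (Hexa, Gaa, Gla, Glb1, Asah1), 3 soluble cofactors and carriers (Psap, Grn, Npc2), 2 subunits of the proton pump (Atp6v0d2, Atp6v1a) and the regulator Tfeb. They were chosen by gene symbol as named lysosomal genes, and each of the 29 was found among the 55450 features of the deposited tables. A further list of 96 lysosomal genes, holding other hydrolases, pump subunits, transporters, sorting receptors, inhibitors and regulators, was read from the same fits.

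The tumours grew under the skin of the flank of C57BL/6J mice, 8 weeks old at injection, from the murine colon carcinoma line MC38. In the KO group Hnrnpa2b1, the gene of an hnRNP that binds RNA, was knocked out in the injected cells, and the WT group received MC38 cells without that knockout, so the host cells of every tumour carried the gene. Each group held 2 tumours, numbered 1 and 2 in the labels, and each tumour was digested whole to single cells and profiled by 10x Genomics droplet sequencing, with no sort stated. The labels say neither whether the KO line is 1 clone nor whether the tumours of a group came from separate experiments. Every p-value below therefore sets a difference between groups against the spread of tumours within groups, and speaks for these 4 tumours only.

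The lysosome is the acidic compartment in which cells degrade material taken up from outside and worn parts of their own. The vacuolar proton pump acidifies its lumen, which activates cathepsins and glycosidases, while heavily glycosylated membrane proteins such as Lamp1 and Lamp2 line its wall, and the transcription factor Tfeb raises many lysosomal genes together through a short promoter motif. Macrophages, which engulf dead cells and debris in tumours, are known for abundant lysosomes, and Cd68 is used to stain them.

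The promoter motif bound by Tfeb and related factors (TCACGTG, searched on both strands) is shown first because it is a sequence feature known from many lysosomal genes. RefSeq promoter windows on GRCm38.p6, of 250 bases before to 50 bases after the gene start, were matched for 24 of the 29 genes. TCACGTG was present in the windows of 9 of these 24 genes (37.5%), in 16 of 74 matched genes of the wider lysosomal list (21.6%) and in 1160 of all 27025 genes with a window (4.29%). The shorter core CACGTG, which every TCACGTG contains, was in 10 of 24 (41.7%), 17 of 74 (23.0%) and 8.09% respectively. The 9 genes were Ctsa, Ctsd, Mcoln1, Lamp1, Glb1, Gaa, Lgmn, Atp6v1a and Gla. Below are the 250 bases before the start, 5′ to 3′ on the gene's own strand, for 5 of them and, for contrast, Ctss, whose window held no match. Capitals mark TCACGTG on either strand. The windows lie at chr8:13158911-13159160 (plus strand, Lamp1), chr7:142387828-142388077 (minus, Ctsd), chr2:164833523-164833772 (plus, Ctsa), chrX:134601006-134601255 (minus, Gla), chr16:44139260-44139509 (minus, Atp6v1a) and chr3:95526536-95526785 (plus, Ctss).
Lamp1: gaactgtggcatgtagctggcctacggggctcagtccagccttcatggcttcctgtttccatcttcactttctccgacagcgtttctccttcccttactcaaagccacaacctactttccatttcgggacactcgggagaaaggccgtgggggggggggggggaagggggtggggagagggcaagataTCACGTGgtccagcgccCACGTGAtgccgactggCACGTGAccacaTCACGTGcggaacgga
Ctsd: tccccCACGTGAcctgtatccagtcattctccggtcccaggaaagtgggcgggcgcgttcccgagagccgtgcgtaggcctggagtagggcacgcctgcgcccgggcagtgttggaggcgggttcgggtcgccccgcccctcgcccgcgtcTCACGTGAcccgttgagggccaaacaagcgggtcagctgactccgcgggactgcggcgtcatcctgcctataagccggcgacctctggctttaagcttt
Ctsa: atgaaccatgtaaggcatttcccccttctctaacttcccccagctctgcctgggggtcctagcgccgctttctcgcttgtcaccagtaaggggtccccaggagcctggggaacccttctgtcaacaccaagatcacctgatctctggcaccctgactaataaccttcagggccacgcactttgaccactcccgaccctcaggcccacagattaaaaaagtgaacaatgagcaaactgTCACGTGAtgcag
Gla: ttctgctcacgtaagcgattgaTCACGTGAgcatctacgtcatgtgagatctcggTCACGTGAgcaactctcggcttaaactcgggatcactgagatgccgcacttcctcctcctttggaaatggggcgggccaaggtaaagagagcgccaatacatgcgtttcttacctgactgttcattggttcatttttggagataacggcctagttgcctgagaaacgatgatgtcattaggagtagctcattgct
Atp6v1a: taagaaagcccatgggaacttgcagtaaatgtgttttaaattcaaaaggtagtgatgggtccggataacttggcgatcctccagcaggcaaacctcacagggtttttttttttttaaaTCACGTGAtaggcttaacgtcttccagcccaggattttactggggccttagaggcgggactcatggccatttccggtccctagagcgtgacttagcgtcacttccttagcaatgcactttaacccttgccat
Ctss: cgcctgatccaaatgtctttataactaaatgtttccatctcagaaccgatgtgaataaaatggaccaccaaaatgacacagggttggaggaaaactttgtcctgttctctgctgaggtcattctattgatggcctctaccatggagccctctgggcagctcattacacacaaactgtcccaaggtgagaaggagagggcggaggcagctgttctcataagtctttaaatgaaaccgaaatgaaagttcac
Lamp1 carried the motif at 4 places, beginning 62, 45, 28 and 16 bases before its start. Gla carried it at 228 and 195 bases, Ctsd at 245 and 99, Atp6v1a at 132 and Ctsa at 13 bases before the start. These matches describe letters in a window and are not measured binding sites.

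The libraries held 9547 to 12741 barcodes and 114136609 to 153162562 UMIs (unique molecular identifiers, 1 per captured transcript), and 8648 to 11344 cells per tumour were analysed. Pairs of libraries shared 23 to 43 barcodes. Clusters were named from marker genes, and a class name below means cells like that type. Xist-low cells lack both Xist and the leukocyte gene Ptprc and made up 76.1% and 70.5% of cells of WT and 15.8% and 30.4% of cells of KO tumours. Their summed level of 12 epithelial markers was 41.4 to 59.5 CPM (a gene's UMIs relative to all UMIs of the class in a tumour, on the usual scale), so those markers do not define them as carcinoma cells. In these cells Hnrnpa2b1 had 551 and 544 CPM in the WT libraries and 381 and 320 CPM in the libraries labelled KO, and at 328 to 422 CPM in phagocytes of all 4. The edited position was not given in the sources used here. The UMIs that remain need not come from unedited cells.

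Mononuclear phagocytes (macrophages and monocytes) numbered 1266 and 1377 cells in WT tumours, 2927 and 2311 in KO tumours, and all 12 of their markers were detected in every tumour. They fell into 4 clusters, 3 of them named as states. The Nos2 Arg1 state was led by Inhba, Slpi, Ly6i and Nos2. It held 5 markers of its list (Nos2, Hilpda, Ndrg1, Cxcl3 and Il1b, but not Arg1) and 4 of an interferon list. Cluster 9 is called by its number. It held 7 markers of the macrophage list with Ccl8, Trem2 and Ms4a7 and 8 cell cycle markers, and its 10 leading genes included Ch25h, Ccl12, Ccl24 and Pf4 but also the cell cycle genes Cdca3, Hmmr and Ccnb2. The 8 cell cycle markers summed to 1140 and 591 CPM in its WT and 871 and 1125 CPM in its KO cells, and their part in the results for this cluster was not tested. The Folr2 Clec10a state was led by Retnla, Lyve1, Cd163 and Clec10a, and the Ly6c2 monocyte state held 8 classical monocyte markers but was led by Ace and Adgre4, known from the non-classical monocytes of blood. None of the 29 genes, and none of the wider lysosomal list, was used to cluster the cells.

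The 29 genes together gave 2.08% and 2.28% of the phagocyte UMIs of WT tumours, 2.94% and 3.14% of those of KO tumours, against 0.41% to 0.449% in Xist-low cells. Dendritic cells gave 1.11% to 1.53%, neutrophils 0.82% to 1.18%, fibroblasts 0.652% to 0.873% and T and NK cells 0.308% to 0.469%. In each of the 4 tumours phagocytes had the highest of these shares. Levels across classes are in CPM of counts summed per tumour and are a description, since classes were drawn from the same cells.

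**Figure D1:**
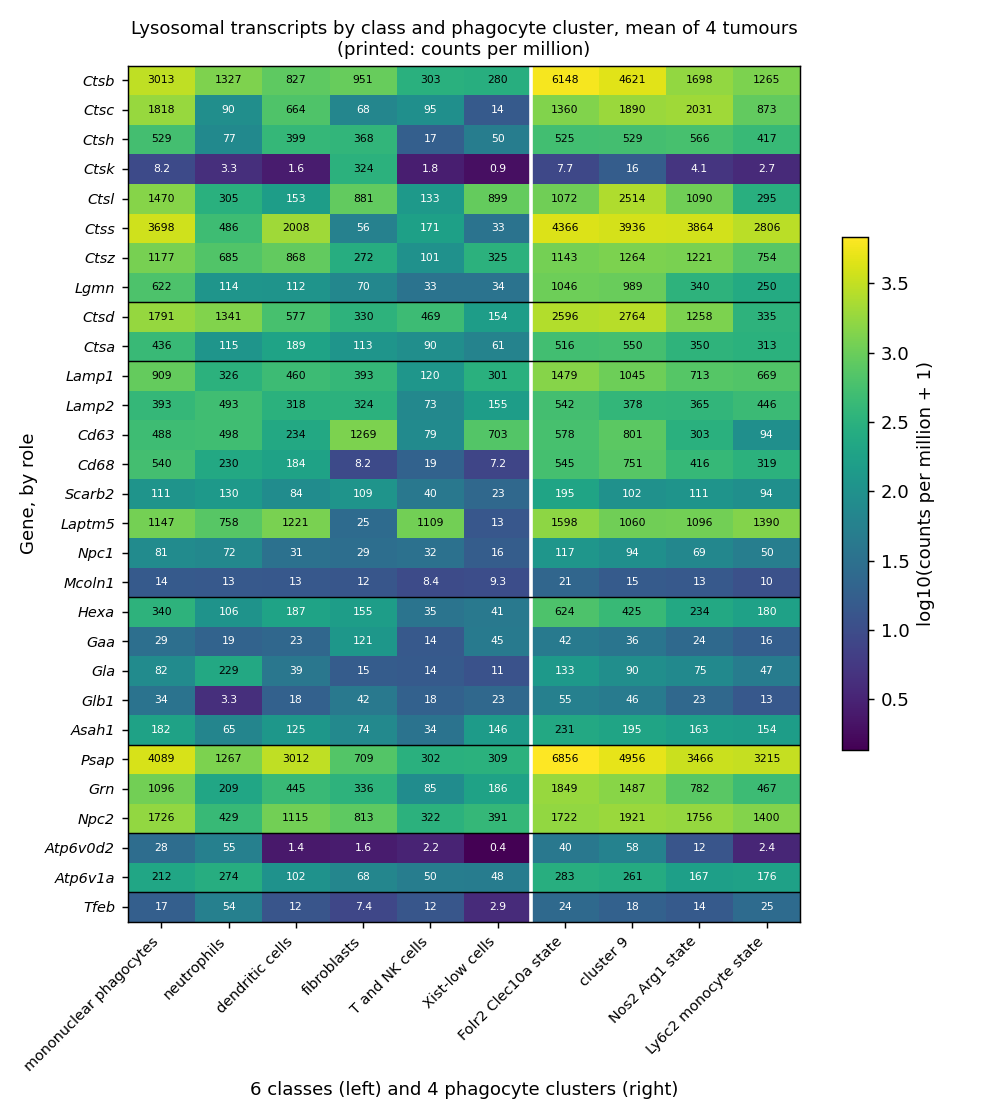
Mean CPM over 4 tumours for each of the 29 genes (rows, by role) in 6 cell classes and 4 phagocyte clusters (columns), with colour as log10(CPM + 1) and the CPM printed in each cell. The phagocyte column is the brightest (highest) among the classes for 18 genes, and the Ly6c2 monocyte column is the darkest (lowest) among the phagocyte clusters for 25.

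Averaged over the 4 tumours, phagocytes were the class with the highest level for 18 of the 29 genes, and for 12 of these in every tumour. Neutrophils were highest for 6 (Lamp2, Scarb2, Gla, Atp6v0d2, Atp6v1a and Tfeb), fibroblasts for 4 (Ctsk, Cd63, Gaa and Glb1) and dendritic cells for Laptm5. With suspected doublets kept, which also let clusters of mostly suspected doublets take a class name, phagocytes were highest for 22. The neutrophil values rest on few UMIs in WT tumour 1, which had 50 such cells.

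Among the proteases, Ctss, the cathepsin that trims the invariant chain of MHC class II, stood at 3418, 2994, 3900 and 4479 CPM in phagocytes (WT tumour 1, WT tumour 2, KO tumour 1, KO tumour 2). It stood at 28.0, 13.1, 52.5 and 40.4 CPM in the Xist-low class of these tumours, a mean 110-fold lower, and the ranges did not overlap. These levels hold free RNA of the droplets, RNA from other cells that is captured along with a cell's own, whose estimated share of Xist-low UMIs was 13.3%, 5.83%, 3.98% and 4.32%. With it subtracted, 0, 3.05, 12.8 and 9.92 CPM of Ctss remained in that class, and the ratio of means was 655. In WT tumour 1 the Xist-low share was set by the phagocyte markers themselves, in the other tumours by T and NK markers. For genes that follow phagocyte markers, the level left in WT tumour 1 is therefore held near 0 by the method. Ctsc, which activates the serine proteases of leukocyte granules, showed a 128-fold higher mean in phagocytes than in Xist-low cells, where 0, 1.67, 2.49 and 0.31 CPM were left after that subtraction. Legumain (Lgmn), an asparaginyl endopeptidase, was 18.1-fold higher in phagocytes, Ctsd 11.6-fold and Ctsb 10.8-fold. Ctsl differed less between these classes: its phagocyte level of 1024, 1228, 1881 and 1746 CPM overlapped the Xist-low level of 1101, 793, 807 and 897 CPM, and the ratio of the means was 1.63. Ctsk, the collagen-degrading cathepsin known from osteoclasts, was a fibroblast transcript here, at 190, 339, 430 and 337 CPM against 3.25 to 14.5 CPM in phagocytes.

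Among the membrane proteins, Cd68 stood at 504, 504, 568 and 584 CPM in phagocytes and at 3.73 to 10.7 CPM in Xist-low cells, a 75.2-fold ratio of means, or 191-fold with free RNA subtracted. Laptm5, a membrane protein of blood cells, was 89.1-fold higher in phagocytes than in Xist-low cells but spread over all leukocytes, with means of 1221 CPM in dendritic cells, 1147 in phagocytes and 1109 in T and NK cells. With free RNA subtracted its Xist-low level was 0, 0.131, 2.81 and 0.198 CPM. The ranges over tumours of these 3 classes overlapped, so their order is not resolved. Cd63, a tetraspanin of late endosomes and exosomes, was highest in fibroblasts, at 1146, 966, 1190 and 1774 CPM. Its level in Xist-low cells, 658 to 768 CPM, exceeded that in phagocytes, 385 to 630 CPM.

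Among the remaining enzymes and cofactors, Psap, the precursor of the saposins that present lipids to glycosidases, stood at 2705 to 5052 CPM in phagocytes, 13.2-fold above Xist-low cells on the mean. Gaa, the enzyme that breaks down glycogen in the lysosome, was lower in phagocytes than in Xist-low cells in each tumour, with a ratio of means of 0.65, and highest in fibroblasts, at 88.8 to 148.0 CPM. Asah1, the acid ceramidase, differed little between phagocytes and Xist-low cells, with a ratio of 1.24. Gla, which removes terminal galactose from glycolipids, was highest in neutrophils in each tumour, at 176 to 289 CPM against 42.3 to 123 CPM in phagocytes.

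Within the phagocytes, the Folr2 Clec10a state had the highest mean for 17 genes, cluster 9 for 9, the Nos2 Arg1 state for Ctsc and Ctsh and the Ly6c2 monocyte state for Tfeb. The Ly6c2 monocyte state was lowest for 25 of the 29, in every tumour for 15 of them. The 29 genes together gave 2.85% to 4.57% of UMIs in the Folr2 Clec10a state, 2.08% to 4.43% in cluster 9, 1.85% to 2.58% in the Nos2 Arg1 state and 1.37% to 1.83% in the Ly6c2 monocyte state.

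Ctsb, a broadly acting cathepsin, followed this order in its means, at 6148 CPM in the Folr2 Clec10a state, 4621 in cluster 9, 1698 in the Nos2 Arg1 state and 1265 in the Ly6c2 monocyte state. Neighbours in that order were close in 2 tumours: KO tumour 1 had 7325 CPM in cluster 9 against 7205 in the Folr2 Clec10a state, and WT tumour 1 had 996 in the Nos2 Arg1 state against 1012 in the Ly6c2 monocyte state. Ctsl reached 2514 CPM on the mean in cluster 9 and 295 in the Ly6c2 monocyte state, an 8.51-fold range. Ctsd spanned 8.26-fold and Cd63 8.55-fold between the same 2 clusters, and Ctsl and Cd63 were highest in cluster 9 in 4 of 4 tumours but Ctsd in 1. Atp6v0d2, a pump subunit known from osteoclasts and macrophages, spanned 24.5-fold, from 57.9 CPM in cluster 9 to 2.37 in the Ly6c2 monocyte state, on 0 to 3 UMIs per tumour in the latter. Ctss and Ctsh varied by 1.56-fold and 1.36-fold over the 4 clusters.

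The 4 clusters took different shares of the phagocytes in each tumour. The Nos2 Arg1 state made up 19.9% and 33.7% of WT and 66.1% and 56.6% of KO phagocytes, and cluster 9 61.8% and 29.8% against 5.98% and 20.1%. Both pairs of groups were without overlap, but no share passed edgeR's quasi-likelihood test on cell numbers. The log2 change was -1.81 ± 0.67 (SE, n = 2 tumours a group; edgeR adjusted p = 0.104) for cluster 9 and 1.20 ± 0.65 (edgeR adjusted p = 0.191) for the Nos2 Arg1 state.

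KO and WT tumours were compared within phagocytes as a class, on counts summed per tumour and scaled by TMM (trimmed mean of M values), which gives slightly different CPM from those above. No member passed the threshold of adjusted p under 0.05, 0 of 29, and neither did any of the 13267 genes tested (0.0%). Of the members, 6 had an unadjusted p under 0.05, all higher in KO, against 2114 of all genes (15.9%). DESeq2 called 350 genes in the same sums and no member. Yet 27 of the 29 had a fitted value above 0 in KO, against 48.7% of all genes, and their median log2 change was 0.39, against -0.01 over all genes. Both KO tumours stood above both WT tumours for 21 members, an arrangement seen for 25.6% of all genes, and below for 0, seen for 22.4%.

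**Figure D2:**
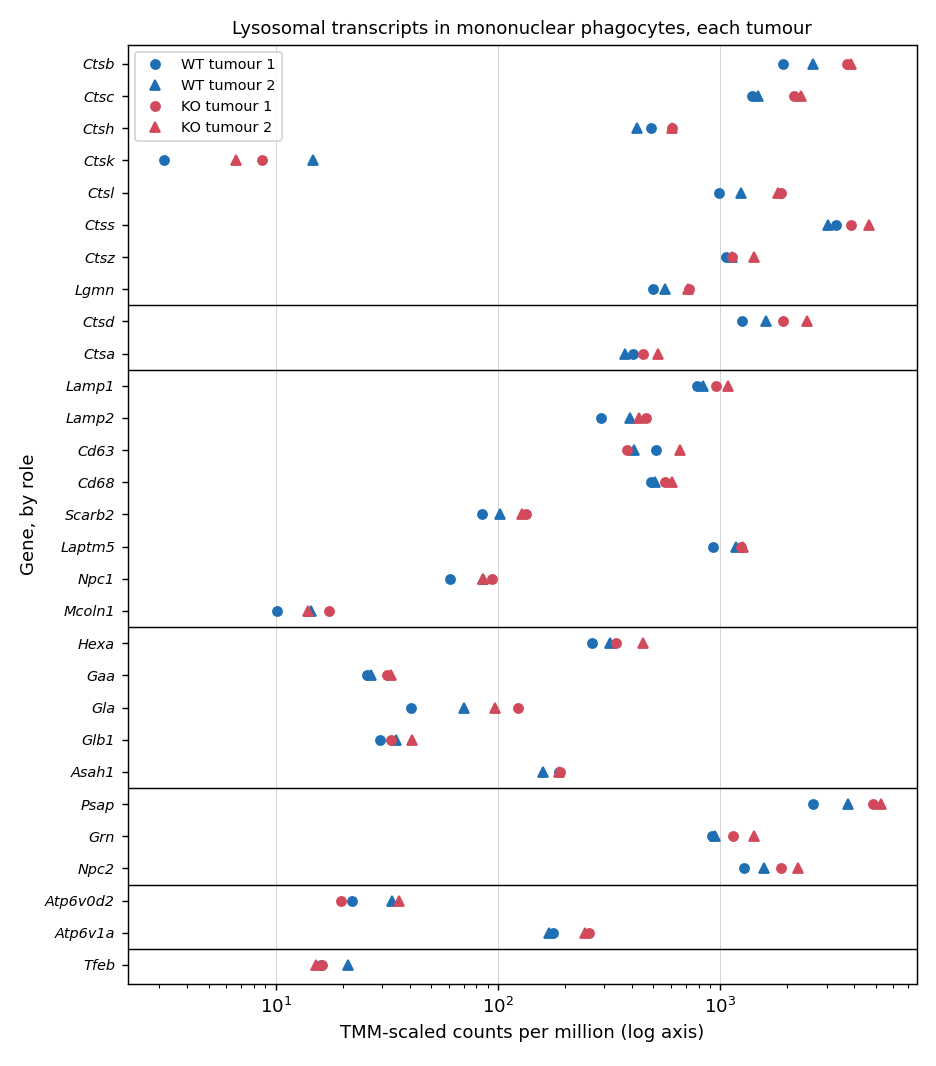
TMM-scaled CPM (log axis) of the 29 genes in mononuclear phagocytes, 1 point per tumour, 2 WT and 2 KO tumours. For 21 genes both KO points lie to the right of both WT points, as for Ctsb at 3727 and 3872 against 1917 and 2618.

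Of the 8 cysteine proteases 7 were fitted higher in KO phagocytes, 3 of them with an unadjusted p under 0.05. Ctsl stood at 986 and 1244 CPM in the WT and 1867 and 1816 CPM in KO, a log2 change of 0.72 ± 0.25 (SE; edgeR adjusted p = 0.239). Ctsb stood at 1917 and 2618 against 3727 and 3872 CPM, a log2 change of 0.74 ± 0.29 (edgeR adjusted p = 0.286). Ctsc stood at 1390 and 1473 against 2144 and 2302 CPM (0.64 ± 0.24, edgeR adjusted p = 0.275). For these 3 proteases the KO tumours lay above the WT tumours without overlap, by less than the test across all genes requires. Ctsd, the main aspartic protease of lysosomes, stood at 1244 and 1602 against 1919 and 2450 CPM (0.62 ± 0.27, edgeR adjusted p = 0.336). Ctsk, at 3.14 and 14.7 against 8.65 and 6.61 CPM, was the protease fitted lower, with overlapping groups.

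All 8 membrane proteins were fitted higher, with a median log2 change of 0.31, but with free RNA subtracted 3 of them (Cd68, Laptm5 and Npc1) were at or below 0 and the median was 0.12. Scarb2, the receptor that carries glucocerebrosidase to the lysosome, stood at 84.4 and 102 CPM in the WT and 134 and 128 CPM in the KO tumours (0.49 ± 0.18, edgeR adjusted p = 0.260). Cd68 stood at 485 and 510 against 563 and 607 CPM, without a difference that passed. Gla had the smallest p of the members, at 40.8 and 70.4 CPM in the WT and 123 and 97.2 CPM in the KO tumours (0.99 ± 0.29, edgeR adjusted p = 0.209). Atp6v1a, the catalytic subunit of the proton pump, stood at 177 and 170 against 257 and 245 CPM (0.53 ± 0.17, edgeR adjusted p = 0.231). For Scarb2, Gla and Atp6v1a each KO tumour lay above each WT tumour. The 3 cofactors and carriers had a median of 0.53, with Psap at 2607 and 3746 against 4864 and 5254 CPM (0.67 ± 0.31, edgeR adjusted p = 0.350). The regulator Tfeb was the other gene fitted lower, at 16.0 and 21.3 against 16.2 and 15.2 CPM.

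The phagocyte libraries of the groups differed in more than these genes. The share of UMIs that could come from free RNA in the droplets, estimated at its highest from markers of other classes, was 23.7% and 17.7% for WT and 7.14% and 7.6% for KO phagocytes. It was set by fibroblast markers in WT tumour 2 and by T and NK markers in the other tumours. Median UMIs per phagocyte were 4774 and 3190 in WT and 7282 and 6070 in KO. With that free RNA subtracted, 22 of the 29 genes were fitted higher in KO, against 49.3% of all genes. The median log2 change was 0.13, against -0.006 over all genes. No member was called, nor was any of the 12177 genes tested. Gla then had 0.70, Ctsl 0.62, Gaa 0.45 and Ctsb 0.44, whereas Ctsk had -0.66, Tfeb -0.55, Atp6v0d2 -0.32, Cd68 -0.10, Laptm5 -0.08 and Ctsz -0.08. Markers of T and NK cells, 12 or 13 of 13 detected, summed to 20.3 and 24.8 CPM in WT and 69.4 and 49.8 CPM in KO phagocytes, and the 10 fibroblast markers to 589 and 532 against 1164 and 832 CPM. The part of these markers in the result was not tested. The calls hinge on WT tumour 2, among the members and among all genes. Without it a single WT tumour was left, and Ctsb was fitted at a log2 change of 1.00. Ctsk, fitted lower in KO with all tumours, was then higher in both KO tumours than in the WT tumour left, the reverse direction.

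**Figure D3:**
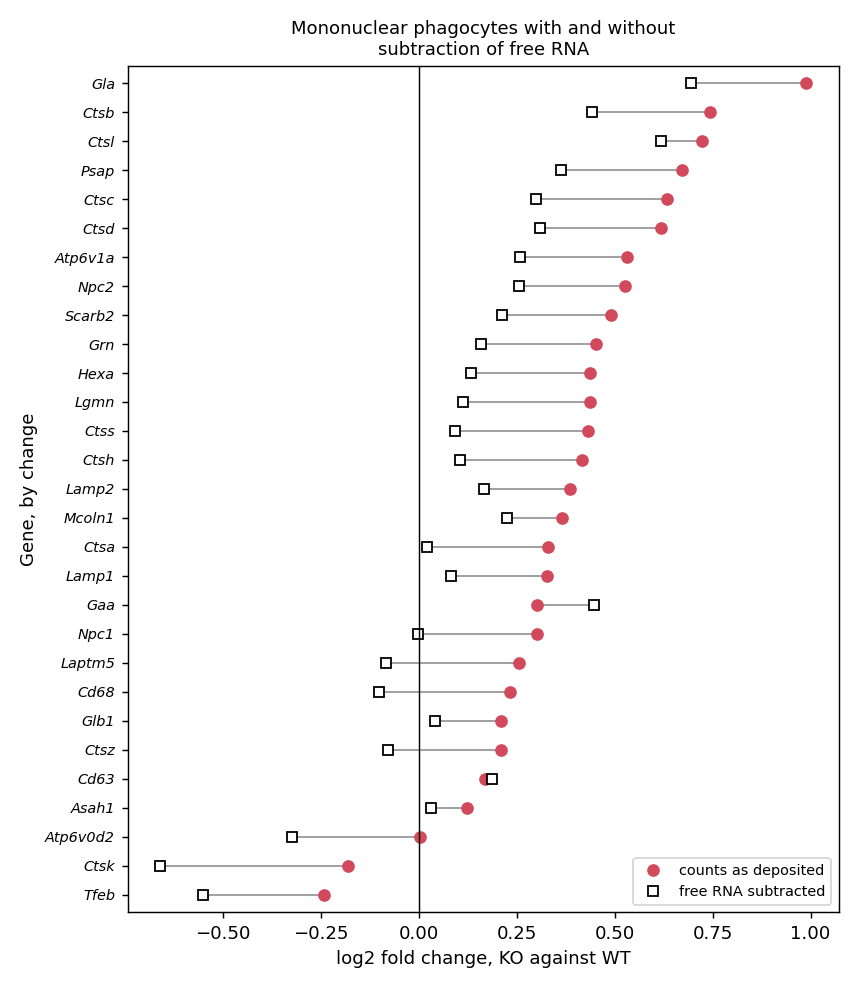
Log2 fold change of the 29 genes between KO and WT phagocytes, with counts as deposited (filled circles) and after subtraction of the estimated free RNA (open squares), 2 tumours a group. The squares lie to the left of the circles for most genes, and the median moves from 0.39 to 0.13.

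Because the clusters differ in lysosomal level and in their shares, KO and WT were also compared inside each state and in cluster 9. In cluster 9 Ctsb rose in KO, the 1 member of 29 that passed, where 288 of 10804 genes did (2.67%; 1.57% higher in KO). It stood at 2006 and 2893 CPM in the WT and 7096 and 6478 CPM in KO, a log2 change of 1.47 ± 0.31 (SE; edgeR adjusted p = 0.0417), or 2.77-fold, and the groups were well apart. The call was lost in 6 of 15 alternatives: without either KO tumour, with at least 1000 genes per cell (adjusted p = 0.0616), with free RNA subtracted (0.0654), with the replicate number as a block (0.182, where Gla passed instead) and at Leiden resolution 2.0, which cuts the cells into finer clusters (log2 change 0.66, adjusted p = 0.677). At resolution 2.0 and with at least 1000 genes per cell, cells were clustered anew. The cells then named by the Ccl8 Trem2 Ms4a7 list need not be those of cluster 9. DESeq2 called 11 of the 29 in cluster 9 (3.51% of all genes).

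Other members of cluster 9 lay close to the threshold. Gla stood at 40.2 and 70.6 against 144 and 106 CPM (log2 change 1.20, edgeR adjusted p = 0.0571). Grn, which encodes progranulin, stood at 943 and 1033 against 1789 and 2198 CPM (1.01, adjusted p = 0.0658). Psap stood at 2526 and 3566 against 7541 and 6186 CPM (1.17, adjusted p = 0.0861). In these 3 genes the KO tumours exceeded the WT tumours without overlap. Ctsd stood at 1399 and 2108 against 3891 and 3676 CPM (1.11, adjusted p = 0.0829), again without overlap. In all, 27 members were fitted higher (49.4% of all genes), 18 had an unadjusted p under 0.05 (18.4% of all genes), and 25 had both KO tumours above both WT tumours, against 24.3% of all genes. The median log2 change was 0.60 as deposited and 0.45 with free RNA subtracted, where the estimated free share was 23.0% and 7.5% in WT and 6.84% and 6.58% in KO. The cluster held 782, 411, 175 and 464 cells in the same order of tumours, with median UMIs of 6337 and 3972 in WT and 11856 and 11340 in KO.

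**Figure D4:**
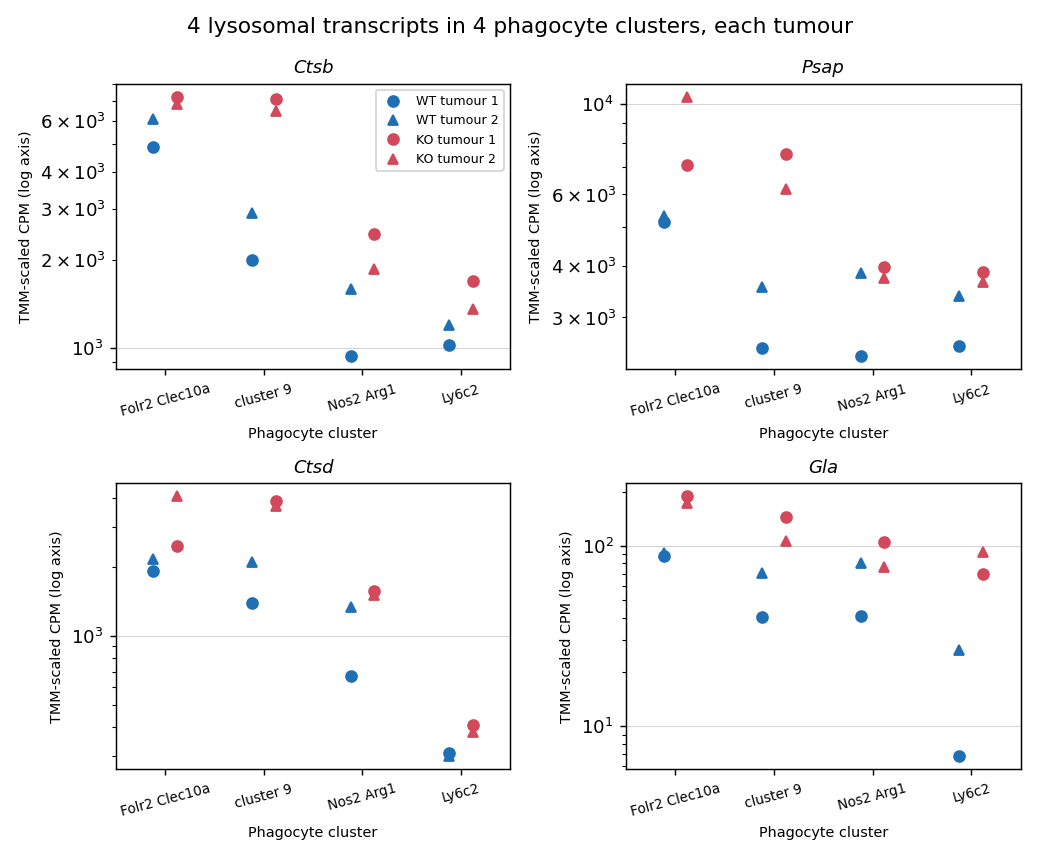
TMM-scaled CPM (log axes) of Ctsb, Psap, Ctsd and Gla in the 4 phagocyte clusters, 1 point per tumour, WT and KO. Ctsb shows its wide gap in cluster 9, at 2006 and 2893 against 7096 and 6478, while its groups lie closer in the Folr2 Clec10a state, at 4884 and 6065 against 7256 and 6848.

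In the Ly6c2 monocyte state Gla rose, the 1 of 24 members tested that passed (1.65% of 5927 genes; 1.38% higher in KO), and 19 were fitted higher (47.8% of all genes). It stood at 6.84 and 26.4 CPM in the WT and 69.8 and 92.9 CPM in KO, a log2 change of 2.10 ± 0.44 (edgeR adjusted p = 0.0328), on 2, 12, 54 and 43 UMIs. The call held with each tumour left out in turn and was lost in 5 other alternatives: with DESeq2 (adjusted p = 0.0914), with free RNA subtracted (0.111), with at least 1000 genes per cell (0.117, where Lgmn passed instead), at Leiden resolution 2.0 (0.0669) and with crossed replicate numbers as a block (0.0573). In this state 4 members passed without WT tumour 2 (7.5% of all genes) and 2 without WT tumour 1 (4.15%). In the Folr2 Clec10a state 0 of 28 members passed (1.56% of 8905 genes; 1.04% higher and 0.517% lower in KO), 23 were fitted higher (48.9% of all genes), 8 had an unadjusted p under 0.05 (17.3%) and DESeq2 called Atp6v0d2 (2.65% of all genes). That gene had 1, 7, 129 and 206 UMIs there, or 2.74 and 9.58 CPM in the WT and 31.4 and 120 CPM in the KO tumours (3.32, edgeR adjusted p = 0.133). Gla, at 87.7 and 91.7 against 188 and 173 CPM (1.01, adjusted p = 0.0648), and Atp6v1a, at 211 and 174 against 393 and 371 CPM (1.00, adjusted p = 0.0717), were higher in both KO tumours. That arrangement held for 17 of the 28 members there, against 25.3% of all genes. In the Nos2 Arg1 state 0 of 29 passed (0.00862% of 11600 genes), 27 were fitted higher (48.9% of all genes), 4 had an unadjusted p under 0.05 (11.6%) and DESeq2 called none, while 4 passed without WT tumour 2 (4.09% of all genes). Ctsl stood there at 503 and 862 against 1799 and 1236 CPM (1.15, adjusted p = 0.282). Whether the change of a gene differs between clusters was not tested.

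**Figure D5:**
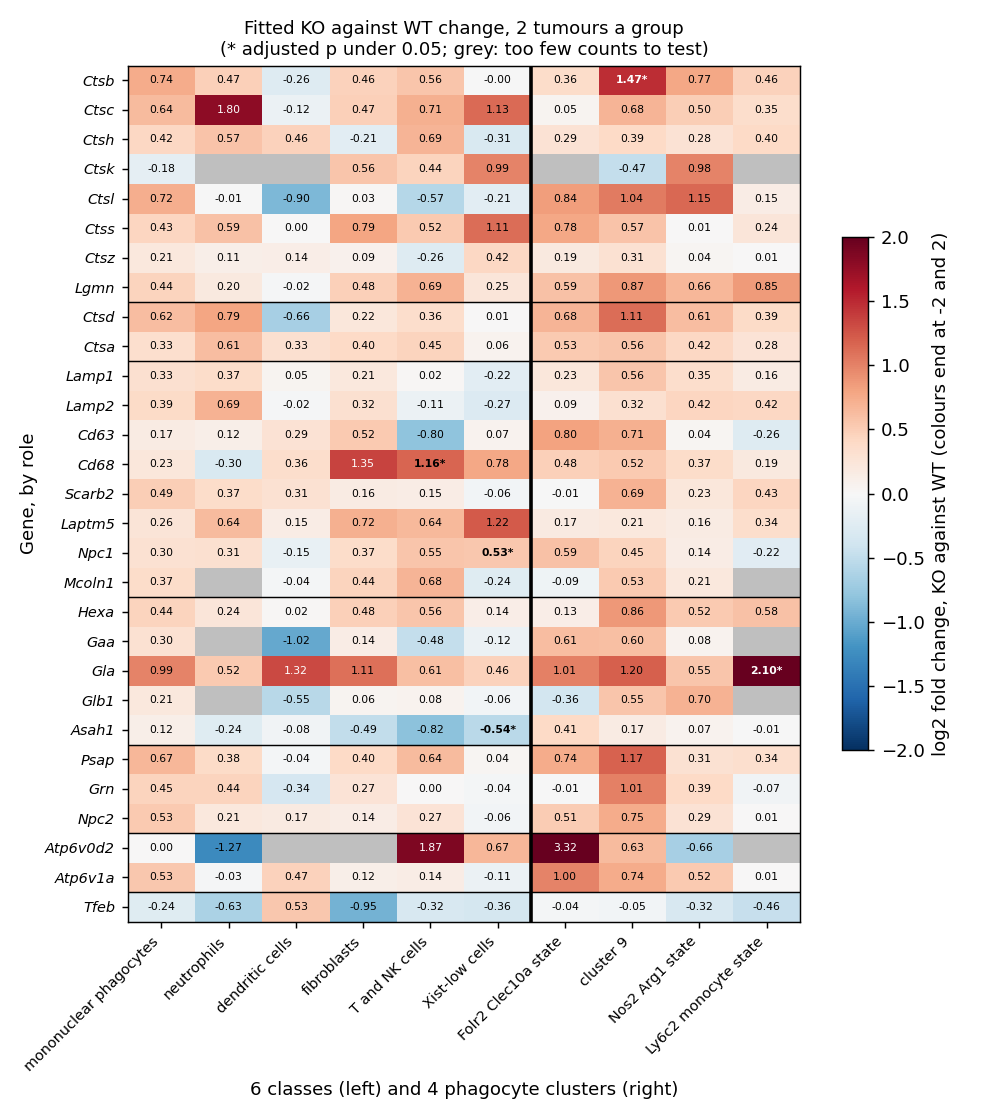
Fitted log2 fold change between KO and WT for the 29 genes (rows, by role) in 6 classes and 4 phagocyte clusters (columns), 2 tumours a group, with a star where the adjusted p is under 0.05 and grey where counts were too few. The 5 stars are Ctsb in cluster 9, Gla in the Ly6c2 monocyte state, Cd68 in T and NK cells, and Asah1 and Npc1 in Xist-low cells.

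In Xist-low cells Npc1 rose and Asah1 fell, 2 of 29 members, where 8.4% of 18064 genes passed (4.28% higher and 4.11% lower in KO). Npc1, which exports cholesterol from the lysosome, stood at 12.4 and 12.8 CPM in the WT and 19.2 and 17.3 CPM in KO, a log2 change of 0.53 ± 0.12 (SE; edgeR adjusted p = 0.0440). Asah1 stood at 186 and 162 against 123 and 116 CPM, a log2 change of -0.54 ± 0.12 (edgeR adjusted p = 0.0440). Both calls were lost without TMM scaling (adjusted p = 0.0557 and 0.0636), with the replicate number as a block (adjusted p = 0.0789 and 0.0824) and without either KO tumour, and that of Asah1 also without WT tumour 1. With the block Ctsc, Laptm5, Ctss and Cd68 passed instead. DESeq2 called 7 members, 6 of them higher in KO (15.1% of all genes). EdgeR called 6 without WT tumour 2 (12.4%), 5 without WT tumour 1 (14.0%) and 0 without KO tumour 1 (2.9%). The members as a list were balanced, with 15 fitted higher (48.9% of all genes) and 14 lower and a median log2 change of 0.01.

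Of the 6 members with the next smallest p in Xist-low cells, Ctsc, Laptm5, Ctss and Cd68 are genes known from leukocytes. Ctsc stood at 11.0 and 6.52 CPM in the WT and 22.8 and 15.7 CPM in the KO tumours (1.13, edgeR adjusted p = 0.0531). Laptm5 stood at 9.85 and 5.35 against 22.1 and 13.5 CPM (1.22, adjusted p = 0.0661). Ctss stood at 28.7 and 13.3 against 49.5 and 41.2 CPM (1.11, adjusted p = 0.0794). In these 3 genes, all far below their phagocyte level, both KO tumours were above both WT tumours as deposited. With free RNA subtracted, as given above, the groups of Ctsc overlapped, those of Ctss and Laptm5 did not, and none of the 3 passed. The subtracted share was set by phagocyte markers in WT tumour 1 and by T and NK markers in the other tumours. The subtracted groups of Ctsc, Laptm5, Ctss and Cd68 were thus not treated alike. Cd68 stood at 6.71 and 3.78 against 10.1 and 7.93 CPM (0.78, adjusted p = 0.127), and passed with free RNA subtracted (1.02, adjusted p = 0.0339). The 12 phagocyte markers, all detected, had a summed level of 187 and 75.4 CPM there in WT and of 260 and 211 CPM in KO, and their part in these values was not tested. Gla, at 8.85 and 9.18 against 12.8 and 11.9 CPM (0.46, adjusted p = 0.0725), and Ctsz, a carboxypeptidase, at 269 and 285 against 354 and 388 CPM (0.42, adjusted p = 0.0832), were also higher in both KO tumours. In this class both KO tumours stood above both WT tumours for 11 of 29 members (29.7% of all genes) and below for 5 (30.5%). Xist-low cells of the groups came from different clusters: the cluster led by Gja4, Krt16 and Nppb contributed 600 and 882 cells in WT and 1094 and 2147 cells in KO. Their median depth was 11875 and 11644 UMIs in WT and 38758 and 31712 in KO.

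In T and NK cells Cd68 rose, the 1 member of 29 that passed (1.74% of 12617 genes; 1.1% higher in KO), from 10.9 and 12.3 CPM to 25.8 and 26.0 CPM, a log2 change of 1.16 ± 0.22 (SE; edgeR adjusted p = 0.0424). The 12 phagocyte markers, all detected, had a summed level of 687 and 566 CPM in T and NK cells of WT and of 1145 and 1020 CPM in those of KO, and their part in the result was not tested. The call was lost with free RNA subtracted (log2 change 1.20, adjusted p = 0.190), with DESeq2 (adjusted p = 0.0908), with at least 1000 genes per cell (adjusted p = 0.0536, where Ctss passed instead) and without WT tumour 1 or either KO tumour (adjusted p = 0.0553 to 0.0876). Without WT tumour 2, where 11.8% of all genes passed, 10 members did, 7 higher and 3 lower in KO (Cd63 -1.17, Asah1 -1.01 and Ctsl -0.84). In this class 22 members were fitted higher, against 49.7% of all genes. No member passed in neutrophils (0 of 25; 0.0% of 4791 genes), fibroblasts (0 of 28; 0.0% of 11439 genes) or dendritic cells (0 of 27; 0.0% of 7300 genes), and DESeq2 called no member in them. Without WT tumour 2 edgeR called 3 in neutrophils (3.6% of all genes), and without KO tumour 1 it called 1 in dendritic cells (4.67%). In each of these 3 classes 3 members had an unadjusted edgeR p under 0.05, as did 13.4%, 5.47% and 11.3% of all genes. Fitted higher in KO were 19 members in neutrophils (50.6% of all genes), 25 in fibroblasts (46.8%) and 14 in dendritic cells (50.1%).

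A test of the difference itself, the KO change in phagocytes minus that in Xist-low cells with the tumour as a block, called 0 of 29 members (0.85% of 17529 genes). The median difference was 0.42 on the log2 scale, against -0.05 over all genes, 21 members were above 0 (46.3% of all genes) and 14 had an unadjusted p under 0.05 (19.0%). DESeq2 called 2 members, Asah1 and Ctsh (3.38% of all genes). Without WT tumour 2 edgeR called 9 (9.0% of all genes). With all tumours Asah1 and Ctsh had differences of 0.68 (adjusted p = 0.123) and 0.73 (adjusted p = 0.112).

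Of the wider lysosomal list, 0 of 91 genes tested passed in phagocytes, with 20 at an unadjusted p under 0.05 (15.9% of all genes), 69 fitted higher (48.7% of all genes) and a median log2 change of 0.22 in edgeR. DESeq2 called 2 of the 91 (2.64% of all genes). In cluster 9, where 1.57% of all genes rose and 1.09% fell, 5 of 87 rose and 1 fell. Tcirg1, a membrane subunit of the proton pump, rose from 107 and 108 CPM in the WT to 195 and 222 CPM in the KO tumours (0.96, edgeR adjusted p = 0.0335). Cst7, an inhibitor of cathepsin C and related proteases, rose from 2.33 and 4.07 to 9.75 and 14.6 CPM (2.09, adjusted p = 0.0377). Acp2, the lysosomal acid phosphatase (1.09, adjusted p = 0.0319), and Plbd2 (0.98, adjusted p = 0.0380) also rose. These 4 calls were each lost without KO tumour 2, with at least 1000 genes per cell, with free RNA subtracted and at resolution 2.0, where Acp2 turned to -0.16. Those of Acp2 and Cst7 were also lost without WT tumour 1, and that of Cst7 with doublets kept. Napsa, an aspartic protease, fell from 72.6 and 84.4 to 28.0 and 19.9 CPM (-1.74, adjusted p = 0.00995), and lost its call at resolution 2.0 (-0.15). At resolution 2.0 and with at least 1000 genes per cell, the cells compared need not be those of cluster 9.

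In Xist-low cells 2 of 90 genes of that list rose and 5 fell, a share close to that of all genes (4.28% higher and 4.11% lower in KO). Tcirg1 rose from 34.7 and 35.9 CPM to 62.6 and 59.0 CPM (0.78, edgeR adjusted p = 0.0149), and Cst7 rose at levels under 1 CPM (1.71, adjusted p = 0.0481). Among those that fell were Ctso, a cathepsin (-0.86, adjusted p = 0.0260), Tmem106b, a lysosomal membrane protein (-0.83, adjusted p = 0.0264), the glycosidase Naglu (-0.68, adjusted p = 0.0328), and Lipa, the acid lipase, from 30.3 and 34.4 to 24.0 and 20.5 CPM (-0.54, adjusted p = 0.0491). The calls of these 4 and of Cst7 were lost without KO tumour 2, those of Naglu, Lipa and Cst7 also without KO tumour 1 and those of Lipa and Cst7 without WT tumour 2. That of Lipa was further lost without TMM, with the replicate block and with lysosomal genes used in clustering, and that of Cst7 at resolution 2.0 and with at least 1000 genes per cell, whereas that of Tcirg1 held in all 15 alternatives. None of the list passed in edgeR or DESeq2 in T and NK cells (0 of 88), neutrophils (0 of 55), fibroblasts (0 of 85) or dendritic cells (0 of 73). An unadjusted edgeR p under 0.05 was held by 11 of the list in T and NK cells (21.3% of all genes), 4 in neutrophils (13.4%), 4 in fibroblasts (5.47%) and 8 in dendritic cells (11.3%).

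Some counts cannot be given to 1 gene with certainty. On GRCm38 (GENCODE vM21), exons of Ctsl (chr13:64359337-64370890), Ctsd (chr7:142375911-142388038) and Glb1 (chr9:114401076-114474898) overlap exons of Gm49230, Gm49369 and Tmppe on the same strand. Exons of 8 members, among them Ctsb (chr14:63122462-63145923) with Fdft1 and Npc1 with Rmc1, overlap exons of a gene on the opposite strand. Gla (chrX:134588149-134601125), Asah1 (chr8:41340197-41374773) and Cd68 (chr11:69664213-69666153) overlap no exon of another gene.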

How the data were processed

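The authors deposited whole-number UMI counts per gene and cell barcode, not normalized, for 2 WT and 2 KO tumours. The labels' protocols give Cell Ranger 5.0.1 and mm10, per the file headers the version was 6.1.2, and Seurat 5.1.0 stands in the submitters' processing notes. The members and lists were chosen with earlier results of these data known.

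Barcodes were kept from 300 genes and 500 UMIs upwards if mitochondrial UMIs made up 20% or less. The doublet caller Scrublet, at its automatic threshold, called 0.0% and 0.009% of WT and 3.24% and 4.36% of KO cells, so the cells of highest score were removed instead, at 0.8% per 1000 barcodes. Counts scaled to 10000 per cell and log-transformed, 2000 variable genes without any lysosomal gene, 30 components, 15 neighbours and Leiden resolution 1.0 gave clusters (scanpy 1.11.5, leidenalg 0.10.2, Python 3.11.15), with no batch integration. A cluster was named when at least 3 markers of a list were each held by at least 10% of its cells at 2 times the mean of the others. The Xist-low rule (under 1 Xist and under 1 Ptprc UMI per 10000) came from an earlier analysis, and it was decided after seeing the data that the cycling list names a state only where no other list does. Cluster 9, which held more cell cycle markers than macrophage markers, is therefore called by its number.

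Counts were summed per tumour and class with at least 50 cells in each tumour. edgeR 4.0.16 (R 4.3.3) fitted group alone with TMM, filterByExpr and the quasi-likelihood test, adjusted by Benjamini and Hochberg over all genes tested, with a threshold of 0.05. The script was tested on simulated data. Endothelial, mural and mast or basophil cells fell short of 50 cells and were not tested. Alternatives were DESeq2 1.42.0, its size factors in edgeR, no TMM, no filter on low counts, the replicate number as a block, each tumour left out, doublets kept, lysosomal genes used in clustering, resolution 2.0, at least 1000 genes per cell, and free RNA subtracted. The free RNA profile was the sum over all kept barcodes of a library, scaled for each class by the lowest ratio of another class's markers, so it is an upper estimate. Full statistics were given for members past the threshold, or with the 8 smallest p, in phagocytes and Xist-low cells and past it elsewhere, and of the wider list for at most 8 per class past it; other members named in a state were chosen after their values were seen. Some genes of the wider list are counted but not reported by name here. Same-numbered tumours deviated from their group means with a correlation of -0.319 in phagocytes and -0.102 in Xist-low cells, so the numbers were not read as pairs.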

Additional observations from a re-analysis of the deposited data

Results flagged for a closer look

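Lipa, the lysosomal acid lipase of the wider list, had a KO change in mononuclear phagocytes that differed from its change in Xist-low cells, by 1.10 ± 0.18 on the log2 scale (SE; edgeR adjusted p = 0.0419, tested as a difference with the tumour as a block). Its log2 change was 0.55 in phagocytes (adjusted p = 0.315) and -0.54 in Xist-low cells (adjusted p = 0.0491). The difference was 0.88 with free RNA subtracted (adjusted p = 0.206), 1.00 without TMM (adjusted p = 0.0635), 1.01 without KO tumour 1 (adjusted p = 0.172) and 1.07 without WT tumour 1 (adjusted p = 0.0578).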

How the results depend on the processing

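Counts of members called, in either direction, moved as follows, with the share of all genes called in the same fit in brackets. The ranges with each tumour left out are printed without that share. Calls among all genes moved in those fits too, so these ranges do not single out the members. DESeq2 called 0 in T and NK cells (2.39%), 7 in Xist-low cells (15.1%), 2 for the difference between classes (3.38%), 11 in cluster 9 (3.51%), 1 in the Folr2 Clec10a state (2.65%) and 0 in the Ly6c2 monocyte state (0.709%). Without a filter on low counts 1 was called in dendritic cells (1.78%), 1 in phagocytes (5.1%), 1 in neutrophils (0.201%), 9 in T and NK cells (6.06%), 7 in Xist-low cells (12.5%), 10 for the difference (5.7%), 12 in cluster 9 (5.23%), 9 in the Folr2 Clec10a (4.87%), 2 in the Ly6c2 monocyte (1.63%) and 1 in the Nos2 Arg1 state (2.33%). Without TMM 0 were called in Xist-low cells (6.63%). With free RNA subtracted 0 were called in T and NK cells (0.431%), cluster 9 (1.8%) and the Ly6c2 monocyte state (0.0739%), and 3 in Xist-low cells (9.15%), with Cd68 added. With doublets kept 17 were called in neutrophils (19.6%), 6 in T and NK cells (3.19%), 2 in cluster 9 (3.42%) and 3 in Xist-low cells (8.87%), with Ctsc added. That setting also let clusters of mostly suspected doublets, unnamed in the main fit, take a class name. Cluster 22, with 63.4% suspected doublets, held the neutrophil markers S100a8, S100a9, Cxcr2 and G0s2, and cluster 20, with 92.0%, held T cell markers. Genes tested in neutrophils went from 4791 to 9885. The neutrophils and T and NK cells compared there need not be those of the main fit. At Leiden resolution 2.0 the counts were 4 for the difference (4.24%), 0 in the cells then named by the Ccl8 Trem2 Ms4a7 list (0.0%) and 0 in the Ly6c2 monocyte state (1.83%). Those cells need not be the cells of cluster 9, nor need they in the next settings, which were also clustered anew. With at least 1000 genes per cell 0 were called in cluster 9 (1.19%) and 1 in the Folr2 Clec10a state (1.17%), and clustering with lysosomal genes gave 6 in cluster 9 (4.8%). With the replicate number as a block 1 was called in neutrophils (1.5%), 4 in T and NK cells (6.12%), 1 in the Folr2 Clec10a state (2.14%) and 4 in Xist-low cells (9.64%), none of them Npc1 or Asah1; in cluster 9 it called Gla in place of Ctsb (4.0%). Crossed numbers, an alternative chosen after seeing the data, gave 2 in phagocytes (11.1%), 1 in neutrophils (0.668%), 10 in T and NK cells (9.34%), 7 in Xist-low cells (22.3%) and 18, 5, 0 and 3 in cluster 9 (12.6%) and the Folr2 Clec10a (10.1%), Ly6c2 monocyte (1.11%) and Nos2 Arg1 (4.02%) states. With each tumour left out in turn, counts ranged from 0 to 6 in phagocytes, 0 to 6 in Xist-low cells, 0 to 10 in T and NK cells, 0 to 3 in neutrophils, 0 to 1 in dendritic cells, 0 to 9 for the difference, and 0 to 14, 0 to 0, 1 to 4 and 0 to 4 in cluster 9 and the states in the order above; where a group is left with 1 tumour, that tumour is assumed to vary like the others. The log2 change in cell number ranged from -2.94 to -1.19 for cluster 9, -1.43 to -0.59 for the Ly6c2 monocyte and 0.87 to 1.62 for the Nos2 Arg1 state, and from -0.0681 without WT tumour 1 to 1.05 for the Folr2 Clec10a state. Acp2 turned to -0.16 (edgeR adjusted p = 0.893) in the cells named by the Ccl8 Trem2 Ms4a7 list at resolution 2.0. The cause of these shifts was not tested. Of single genes followed, 384 recomputed values kept their direction and side of the threshold, 70 lost the call, 36 gained one and 1 reversed. Depth limits Atp6v0d2, Ctsk and Tfeb in small states, where some tumours held under 10 UMIs.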

Other observations

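Gla, picked out after its values were seen, was higher in both KO tumours than in both WT tumours in each of the 6 classes compared and in 3 of the 4 phagocyte clusters, on TMM-scaled CPM. That arrangement was seen for 17.2% (fibroblasts) to 29.7% (Xist-low cells) of all genes in the classes and for 22.4% to 25.3% in the clusters. All classes came from the same 4 tumours, so they are not independent of each other. The levels of Gla follow. Gla stood at 19.5 and 26.7 CPM in dendritic cells of the WT tumours and at 48.4 and 66.8 CPM of the KO tumours (log2 change 1.32, edgeR adjusted p = 0.210). In fibroblasts it stood at 8.89 and 10.9 against 21.8 and 20.5 CPM (1.11, adjusted p = 0.683). The exception was the Nos2 Arg1 state, where WT tumour 2 at 81.0 CPM lay above KO tumour 2 at 76.7 CPM. Only in the Ly6c2 monocyte state did the gene pass the test, among the classes and states tested.

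In neutrophils Ctsc stood at 17.5 and 51.9 CPM in the WT and 181 and 132 CPM in the KO tumours, on 1, 19, 256 and 58 UMIs (log2 change 1.80, edgeR adjusted p = 0.134). Cst6, an inhibitor of cysteine cathepsins, was lower in both KO tumours in phagocytes, at 15.8 and 6.96 against 2.91 and 2.75 CPM (-2.02, adjusted p = 0.136), and in dendritic cells, at 28.5 and 18.5 against 5.60 and 2.84 CPM (-2.32, adjusted p = 0.154). Of all genes 22.4% and 19.9% had both KO tumours below in these classes. The estimated free RNA share was 23.7% and 17.7% in WT against 7.14% and 7.6% in KO phagocytes. In dendritic cells it was 15.8% and 15.2% against 5.92% and 7.2%. The part of free RNA in the Cst6 values cannot be read from these levels. Cst6 with free RNA subtracted, and Cst6 in Xist-low cells, are not reported here. Ctsc in neutrophils and Cst6 too were picked out after their values were seen.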
